A study of Mus musculus with 102 samples.

Results

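Constitutive low-methylated regions (LMRs) are short stretches of reduced CpG methylation that mouse embryonic stem cells share with other cell types. The study listed 88 genomic regions for amplicon bisulfite sequencing, and 19 of them were typed as constitutive LMRs with neither CTCF nor REST added to the type. Overlapping entries were merged, which gave 13 loci. Of these loci, 10 held 59 of the 405 CpGs measured by amplicons, and 9 held 84 of the 2177608 CpGs measured by SureSelect, a hybrid capture of regulatory DNA followed by bisulfite sequencing. A further 105 SureSelect CpGs lay within 2 kb of the ends of the regions, and 33 CpGs inside the regions were measured by both assays.

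The wild-type (WT) line was derived from embryos of C57BL6/J background homozygous for floxed Dnmt3a and Dnmt3b alleles, from 1 homozygous clone, and the Tet triple knockout (TTKO) line was made from it by mutating Tet1, Tet2 and Tet3, with 1 clone carried forward. All cells, controls included, therefore carried the floxed alleles, which were intact until Cre protein was added to the medium. Amplicon libraries comprised, per line, 3 non-transduced replicates at day 0, 18 Cre-treated and 18 mock-treated libraries, with 3 replicates each at days 4, 8, 10, 13, 17 and 29. Mock-treated cells received the buffer of the Cre protein. SureSelect libraries comprised 3 replicates of TTKO cells at day 0 and at the same 6 days after Cre, and 3 of WT cells at day 0. Deletion was not complete in every cell, and cells were moved from feeders to feeder-free plates after transduction. The paper calls the replicates biological, but the labels do not say that they came from separate cultures. The p-values therefore measure the spread between these libraries.

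LMRs lie mostly away from promoters, at sites such as enhancers where transcription factors bind and keep CpG methylation low. DNMT3A and DNMT3B place methyl groups on unmethylated CpGs, DNMT1 copies methylation onto the new strand after replication, and the TET enzymes oxidise 5-methylcytosine and so favour its removal. With the Tet genes mutated, Cre leaves a CpG with DNMT1 as its only intact methylation enzyme, and the level that remains over time reflects how well methylation is copied there.

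The sequences that carry the contrasts between and within these regions are printed first, from the plus strand of mm9 (NCBIM37), in lower case with the CpGs measured by amplicons in capitals. The first holds the CpG with the largest loss after Cre, and in the middle of the run a CpG with a far lower level than its neighbours. The second, in an intron of Trak1, holds the CpG with the smallest loss and had a low mean level in both lines. The third, in an intron of Akap6, comes from the locus with the widest range of levels among its own CpGs. The last 2 were chosen after their values were seen, the fourth for its densely packed CpGs and the fifth for its high mean level in both lines.
chr13:107863445-107863646: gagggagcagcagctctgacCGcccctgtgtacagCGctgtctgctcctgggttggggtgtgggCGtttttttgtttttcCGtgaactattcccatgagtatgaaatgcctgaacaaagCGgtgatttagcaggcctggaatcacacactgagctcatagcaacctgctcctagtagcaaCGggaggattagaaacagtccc
chr9:121257374-121257670: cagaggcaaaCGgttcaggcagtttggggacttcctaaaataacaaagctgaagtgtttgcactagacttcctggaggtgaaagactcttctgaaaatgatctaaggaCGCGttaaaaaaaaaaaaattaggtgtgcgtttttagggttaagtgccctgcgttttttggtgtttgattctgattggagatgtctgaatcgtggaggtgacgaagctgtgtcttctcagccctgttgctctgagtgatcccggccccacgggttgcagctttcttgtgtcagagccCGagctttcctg
chr12:54133604-54133859: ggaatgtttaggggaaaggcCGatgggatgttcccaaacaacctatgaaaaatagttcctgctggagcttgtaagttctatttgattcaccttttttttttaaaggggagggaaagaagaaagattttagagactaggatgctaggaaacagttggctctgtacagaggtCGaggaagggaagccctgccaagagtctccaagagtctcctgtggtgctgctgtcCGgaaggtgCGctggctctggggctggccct
chr11:94734328-94734455: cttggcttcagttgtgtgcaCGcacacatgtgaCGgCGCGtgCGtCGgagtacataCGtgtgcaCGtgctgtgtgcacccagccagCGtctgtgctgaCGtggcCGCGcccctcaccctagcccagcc
chr13:28387579-28387701: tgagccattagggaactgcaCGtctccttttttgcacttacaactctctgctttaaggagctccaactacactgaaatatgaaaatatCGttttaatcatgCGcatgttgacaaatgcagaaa

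In the GENCODE M1 annotation 6 of the 13 loci were intergenic, 5 were intronic and 2 overlapped exons. The intronic loci were in Cradd (chr10:94716914-94717473), which encodes a death-domain adaptor, in Rassf3 (chr10:120898486-120898912), in Akap6 (chr12:54133520-54134088), which encodes an anchoring protein for protein kinase A, in Man1c1 (chr4:134215960-134216386), which encodes a Golgi mannosidase, and in Trak1 (chr9:121257360-121257789), which encodes an adaptor for mitochondrial transport. The exonic loci overlapped St7 (chr6:17856251-17856639) and the first exon and start site of Fggy (chr4:95223871-95224407), so that the Fggy locus was the only promoter among them. The intergenic loci were chr1:13521901-13522159 (32624 bases from Tram1), chr11:94734321-94734739 (62799 bases from Col1a1), chr13:28387413-28387725 (143933 bases from Prl5a1), chr13:107863439-107863714 (39686 bases from 3830408C21Rik), chr3:50960484-50961121 (67248 bases from Ccrn4l) and chr3:65259384-65260137 (51042 bases from 4931440P22Rik), and a gene named beside an intergenic locus is only the nearest protein-coding gene. The loci were 259 to 754 bases long, with 37.4% to 58.5% G and C and 0.958 to 4.06 CpGs per 100 bases. The loci in Rassf3 and Man1c1 and the one near Ccrn4l were covered by SureSelect only.

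Depth was high in the amplicons and moderate in SureSelect. Between 1892557 and 4706462 reads covered CpGs per TTKO amplicon library and between 2097549 and 4704933 per WT library. Within these regions the median coverage of a CpG in 1 library was 842 to 3148 reads in TTKO and 797 to 2716 reads in WT cells, and 34 and 33 levels were missing. SureSelect replicates were joined by the authors into 1 column per time point, with a median coverage of 152 to 269 reads over all CpGs. CpGs of 1 amplicon shared reads and were not replicates of each other, so conditions were compared over libraries. Intervals on single values cover counting error only, since PCR reads carried no molecular identifiers.

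Methylation was higher in TTKO than in WT cells at most of these CpGs. In WT cells at day 0 the 59 CpGs had a median level of 14.8%, with 39 of them under 20%, 17 between 20% and 50%, and 3 above 50%. In TTKO cells at day 0 the median was 67.7%, with 6 CpGs under 20%, 14 between 20% and 50%, 21 between 50% and 80%, and 18 at 80% or above. For the 35 CpGs covered in all libraries of both lines, the mean was 26.6% in WT and 64.5% in TTKO cells, a difference of 37.8 percentage points with no overlap between the lines (exact permutation test, two-sided; p = 0.1 is the least that 3 against 3 replicates allow). CpG by CpG, 51 of 59 were higher in TTKO cells, against 59.3% of all 405 CpGs (quasi-binomial model with limma, Benjamini-Hochberg adjusted p under 0.05), and none was lower. The median log2 odds ratio, the log2 of the ratio of methylated to unmethylated reads in TTKO over that in WT cells, was 3.42 for these CpGs and 1.17 for all CpGs.

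The rise was largest at the Cradd and Akap6 loci. At the 6 CpGs of the Cradd locus the mean level was 12%, 16.0% and 13.0% in the 3 WT replicates and 88.9%, 83.8% and 84.5% in the TTKO replicates. At the 7 CpGs of the Akap6 locus it was 10.5%, 9.80% and 9.51% in WT cells and 67.6%, 72.3% and 69.3% in TTKO cells. All 13 CpGs of this pair of loci were called higher. The single CpG with the largest rise of all, at chr12:54133829 in Akap6, had 10.0%, 5.47% and 7.22% in WT and 90.6%, 90.3% and 92.3% in TTKO cells, a rise of 83.5 points (log2 odds ratio 7.04 ± 0.497 SE, adjusted p = 1.2e-05 from the quasi-binomial model with limma). In the printed Akap6 sequence it is the third CpG.

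Intergenic loci and the St7 locus followed with smaller rises. Near 3830408C21Rik, the mean over 6 CpGs was 15.7%, 14.6% and 20.7% in WT and 65.2%, 67.7% and 65.8% in TTKO cells, and all 6 were called. Near Col1a1, a collagen gene, the mean over 14 CpGs was 23.4%, 23.4% and 20.9% in WT and 67.9%, 63.1% and 62.5% in TTKO cells, and all 14 were called. Near 4931440P22Rik, 9 of 10 CpGs were called, with means of 29.3%, 25.6% and 27.5% in WT and 65.2%, 67.3% and 61.7% in TTKO cells. The lines did not overlap at any of these loci. At St7 all 3 CpGs were called and the mean went from 9.96% ± 2.34 to 59.4% ± 1.44 (SD, n = 3), and near Tram1, which encodes a protein of the translocon, all 4 CpGs were called and it went from 21.4% ± 1.93 to 39.6% ± 1.39.

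The remaining 3 loci with amplicon CpGs stood apart from that pattern, each differently. At the Fggy start site the 2 CpGs had a mean of 16.3%, 17.0% and 17.7% in WT and 25.3%, 13.5% and 14.0% in TTKO cells, so that the lines overlapped, and neither CpG was called. At the Trak1 locus, in the second printed sequence, levels were low in both lines, with means of 5.43%, 4.71% and 1.30% in WT and 7.12%, 9.34% and 8.72% in TTKO cells. Only its first CpG was called, at chr9:121257384, where 10.1%, 3.34% and 0.870% in WT cells stood against 14.8%, 25.5% and 23.8% in TTKO cells (log2 odds ratio 2.60 ± 0.883 SE, adjusted p = 0.0337 from the quasi-binomial model with limma). Its neighbour at chr9:121257482 showed the smallest rise of all, a difference of -1.61 points that the model did not call (adjusted p = 0.752). Near Prl5a1, a gene of the prolactin family, the level was high already in WT cells, against the type of this region, with 75.3%, 63.9% and 66.4% in WT and 92.6%, 90.4% and 90.4% in TTKO cells over its 3 CpGs. Only the CpG at chr13:28387599 was called there, with 38.6% ± 10.4 in WT and 90.9% ± 1.51 in TTKO cells (SD, n = 3).

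**Figure D1:**
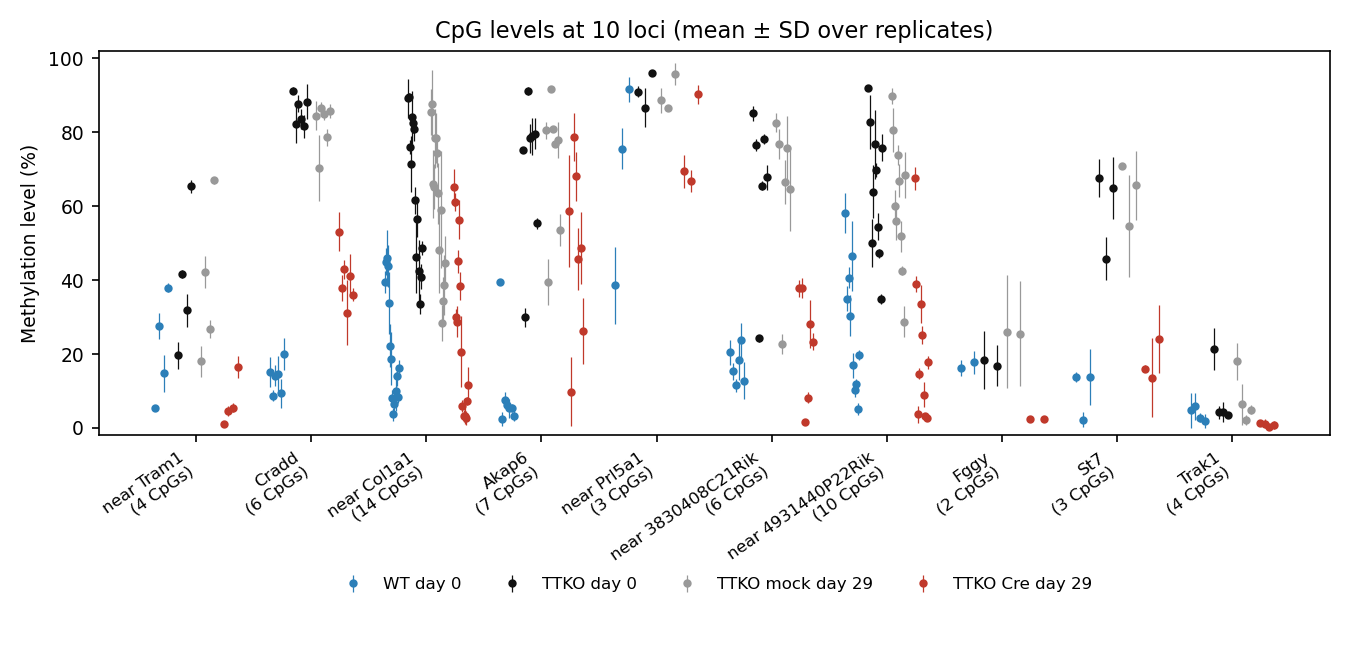
Methylation level in percent of each of the 59 amplicon CpGs at the 10 loci, as points with bars for the mean and SD over the replicates (2 or 3 per CpG), for WT day 0 (blue), TTKO day 0 (black), TTKO mock day 29 (grey) and TTKO Cre day 29 (red). At the Cradd locus WT points lie between 8.70% and 20.1% and TTKO day 0 points between 81.5% and 91.2%, whereas at the Trak1 locus no day 0 point exceeds 21.4%.

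Levels differed widely between CpGs of the same region. In TTKO cells at day 0, levels ranged from 29.9% to 91.0% within the Akap6 locus, from 24.2% to 85.1% near 3830408C21Rik, from 34.8% to 91.9% near 4931440P22Rik and from 33.6% to 89.6% near Col1a1. At Cradd the range was only 81.5% to 91.2%. The CpG at chr13:107863509, in the first printed sequence, had 25%, 24.5% and 23.1% in the TTKO replicates. The CpG 29 bases before it had 74.9%, 76.8% and 78.1%, and the CpG 16 bases after it 64.1%, 66.7% and 65.7%, so that neither neighbour overlapped with it. All 3 were covered by 6357 reads or more in each of these libraries. In the Akap6 sequence, the second CpG, at chr12:54133774, had 28.6%, 32.9% and 28.2%, 55 bases before the CpG of largest rise. Over all 21 pairs of adjacent measured CpGs at most 20 bases apart the median step in TTKO level was 9.32 points, over the 20 pairs 21 to 100 bases apart it was 11.5 points, and over the 8 pairs further apart it was 18.6 points. Pairs of the closest class mostly shared an amplicon, and the steps are given as a description.

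Among the densely packed CpGs near Col1a1 levels differed over short distances, with steps both down and up. In TTKO cells at day 0 the level was 89.1% ± 5.23 at the first measured CpG (chr11:94734348) and 33.6% ± 2.68 at the CpG at chr11:94734434, 86 bases on (SD, n = 3). Between them it was 71.3% ± 7.57 at chr11:94734366 and 84.0% ± 7.23 at chr11:94734370 (SD, n = 3). The WT level over the same stretch was 39.5% ± 2.98 at the first CpG and 14.2% ± 2.79 at the latter. Replicate values of the first CpG were 95.1%, 85.8% and 86.3% in TTKO and 38.5%, 42.8% and 37.1% in WT cells, without overlap. Across all 59 CpGs the WT and the TTKO level at day 0 had a Pearson r of 0.496 and a Spearman rho of 0.540, given as a description because CpGs of a locus share libraries and reads.

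**Figure D2:**
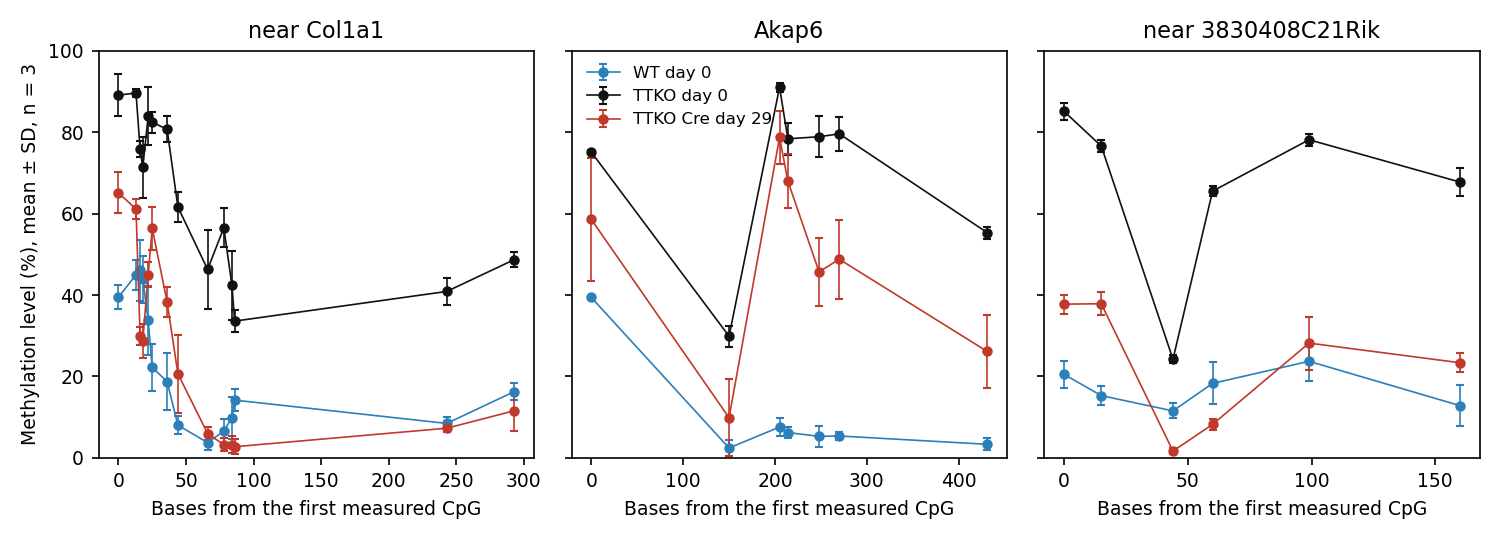
Methylation level in percent (mean and SD, n = 3 libraries) against distance in bases from the first measured CpG of the locus, for the loci near Col1a1, in Akap6 and near 3830408C21Rik, in WT day 0 (blue), TTKO day 0 (black) and TTKO Cre day 29 (red) libraries. The dip at the third CpG near 3830408C21Rik, to 24.2% in TTKO cells at day 0, lies between neighbours at 76.6% and 65.5%.

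After deletion of Dnmt3a and Dnmt3b in TTKO cells, methylation of these regions fell steadily over 29 days. For 41 CpGs of 7 loci a level was present in all TTKO libraries, and their mean was 64.6% ± 1.64 (SD, n = 3) at day 0. Cre-treated cells had 59.3% ± 3.98 on the first sampling at day 4, passed through 54.0%, 50.04%, 44.6% and 37.9% on days 8, 10, 13 and 17, and ended at 27.8% ± 0.808 by day 29. In mock-treated cells it stayed between 62.9% and 69.0%. At day 29 the Cre replicates had 28.6%, 27.7% and 27.0% and the mock replicates 62.2%, 60.7% and 65.9%. The Cre mean was lower than the mock mean by 6.62 points at day 4, where replicates overlapped (two-sided exact permutation test, p = 0.2). From day 8 on the groups did not overlap, with differences of -9.77, -15.6, -24.4, -30.8 and -35.2 points at days 8, 10, 13, 17 and 29 (p = 0.1 at each day by the same exact test, the smallest possible).

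Counts of single CpGs followed the same course. At day 4 none of 55 tested CpGs was lower after Cre at an adjusted p under 0.05, as was true of 0% of all CpGs tested, and 7 passed unadjusted, while limma on logit levels called 0. By day 8 the call was made for 10 of 51 CpGs, against 17.6% of all CpGs tested, while limma on logit levels called 1. The count rose to 23 of 53 on day 10 (against 43.8%) and 32 of 59 on day 13 (against 33.7%). It reached 41 of 49 on day 17 (against 54.9%) and 49 of 53 on day 29 (against 66.7%). The day 8 count was 0 to 2 when any 1 Cre library was left out (0 without replicate 1, 1 without replicate 2, 2 without replicate 3) and 16 without mock replicate 1, and the day 10 count was 13 without Cre replicate 1. The median log2 odds ratio at day 29 was -2.68 over these CpGs and -1.91 over all CpGs. The 6 Cradd CpGs could not be tested against mock at day 29 because mock replicate 3 had no level for them. Against day 0 in place of mock, a comparison added after seeing the data, 54 of 59 CpGs were lower at day 29, Cradd included, against 80.9% of all CpGs.

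**Figure D3:**
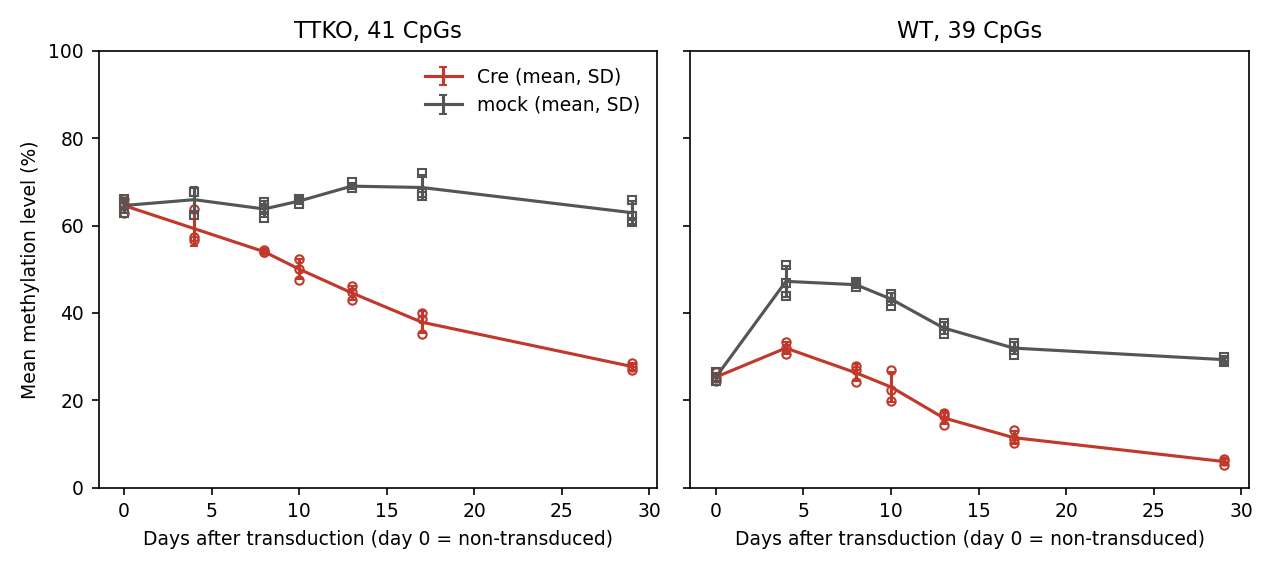
Mean methylation level in percent against days after transduction (day 0, non-transduced), over 41 CpGs in TTKO (left) and 39 CpGs in WT cells (right), with open symbols for libraries, lines for means and bars for SD (n = 3), in Cre-treated (red) and mock-treated cells (grey). TTKO Cre falls from 64.6% to 27.8% while TTKO mock stays at 62.9% or above, and WT mock stands at 47.2% at day 4 and 29.3% at day 29.

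Loss was not uniform across the loci. Near Tram1 the mean of the 4 CpGs at day 29 was 40.3%, 35.3% and 39.9% in the mock and 6.71%, 5.89% and 8.12% in the Cre replicates. Near 3830408C21Rik it was 61.3%, 62.4% and 70.7% in mock and 23.2%, 24.6% and 20.8% after Cre, and near 4931440P22Rik 60.6%, 59.8% and 65.1% in mock and 23.7%, 20.4% and 20.7% after Cre. Neither locus overlapped, and every tested CpG of these 3 loci was called lower. Near Col1a1, where all 14 CpGs were called lower, the mean was 63.0%, 53.0% and 66.5% in mock and 26.1%, 27.4% and 27.8% after Cre. At St7 all 3 CpGs were called, with 63.2%, 71.6% and 56.3% in mock and 18.0%, 13.8% and 22.1% after Cre.

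The Akap6 and Prl5a1-nearest loci retained more. All 7 Akap6 CpGs were called lower at day 29, yet the mean was still 51.9%, 53.4% and 38.6% after Cre against 71.4%, 71.3% and 71.9% in mock. Near Prl5a1 the Cre replicates had 76.0%, 76.9% and 73.4% and the mock replicates 92.4%, 88.3% and 90.2%, without overlap, and 2 of 3 CpGs were called. At Cradd this was less distinct, with 40.7%, 36.5% and 43.9% after Cre against 80.3% and 83.1% in the mock replicates with a level. In SureSelect the Cradd mean went from 70.7% at day 0 to 28.2% at day 29. At the opposite end, Fggy had 2.42% ± 0.479 after Cre and 25.8% ± 14.7 in mock, with mock replicate 2 at 42.7% and the others at 15.4% and 19.3%. Trak1 had 0.870% ± 0.156 after Cre and 7.88% ± 3.00 in mock, and 1 of its 4 CpGs was called.

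Single CpGs spanned nearly the whole range of loss. The largest drop was at chr13:107863525, the fourth CpG of the first printed sequence, which had 63.1%, 62.9% and 73.3% in mock and 7.98%, 6.95% and 9.72% after Cre, a drop of 58.2 points (log2 odds ratio -4.45 ± 0.311 SE, adjusted p = 2.51e-05 from the quasi-binomial model with limma). The CpG 45 bases before it, at chr13:107863480, had a higher level at day 0 and kept 37.3%, 40.9% and 35.4% after Cre. The smallest drop, 1.89 points, was at chr9:121257484 in Trak1, which had 1.5%, 1.14% and 3.78% in mock and 0.254%, 0.336% and 0.144% after Cre and was not called (adjusted p = 0.304 from the same model). That CpG was already close to 0 in mock, at 792 to 926 reads per library, and the groups did not overlap.

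Expressed as the share of the mock level that Cre-treated cells kept at day 29, CpGs ranged from 5.46% at chr11:94734426 near Col1a1 to 94.2% at chr13:28387680 near Prl5a1. The former had 65.2%, 41.1% and 70.8% in mock and 4.79%, 1.55% and 3.34% after Cre, and the latter 99.1%, 94.4% and 93.8% in mock and 91.7%, 91.5% and 87.3% after Cre. At the latter the groups did not overlap, but the CpG was not called (adjusted p = 0.113 from the quasi-binomial model with limma). The CpG with the largest rise from WT to TTKO, at chr12:54133829 in Akap6, kept 85.8% of its mock level, with 91.7%, 92.3% and 91.2% in mock and 81.1%, 83.7% and 71.3% after Cre. In contrast, its neighbour at chr12:54133774 kept 25%. Within the Col1a1-nearest locus the share ran from 76.1% at the first CpG down to 5.46% at a CpG 78 bases on. Across the 59 CpGs the share kept at day 29 and the TTKO level at day 0 had a Pearson r of 0.805 and a Spearman rho of 0.863, and the share kept and the number of CpGs within 500 bases to either side had r = -0.398 and rho = -0.273. These coefficients are descriptions over CpGs that share libraries, reads and loci.

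In the WT line, with TET enzymes present, levels were lower and fell after Cre as well. For 39 CpGs of 6 loci a level was present in all WT libraries, and their mean before transduction was 26.4%, 24.4% and 25.1%. After mock transduction it was 51.0%, 46.9% and 43.9% at day 4, which was 21.9 points above day 0 without overlap (p = 0.1 by a two-sided exact permutation test, the smallest possible) and 13.7 points over the 25 CpGs with at least 1000 reads in every library, where the mock SD was 8.31, and then 46.5%, 43.2%, 36.6%, 32.0% and 29.3% at days 8, 10, 13, 17 and 29. In TTKO cells the same comparison of mock at day 4 with day 0 gave a difference of 1.34 points with overlap (p = 0.6 by the same exact test), and both comparisons were added after seeing the data. The cause of the WT rise was not tested, and WT comparisons were made with mock at the same day.

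WT cells treated with Cre had means of 32.0%, 26.3%, 23.1%, 16.0% and 11.5% at days 4, 8, 10, 13 and 17, and of 6.57%, 6.23% and 5.26% in the replicates at day 29. The difference from mock was -15.3, -20.2, -20.1, -20.6, -20.5 and -23.3 points from day 4 to day 29, without overlap at any of the 6 time points (p = 0.1 each by a two-sided exact permutation test, the smallest possible). CpG by CpG, 0 of 43 were lower at day 4 against 0% of all CpGs, although 11 passed unadjusted, and limma on logit levels called 0. By day 8 the call was made for 38 of 59 CpGs (against 38.3% of all), and 22 of 52 were called on day 10 (against 25.2%) and 30 of 59 on day 13 (against 32.4%). Later counts were 38 of 59 on day 17 (against 51.4%) and 41 of 53 on day 29 (against 51.8%). The count of day 10 was 9, 14 and 13 without mock replicates 1, 2 and 3, that of day 13 was 17 and 18 without mock replicates 1 and 3, and that of day 8 was 25 without mock replicate 1 or 2. At day 29 the median log2 odds ratio was -2.77 over these CpGs and -1.64 over all CpGs, and 57 of the 59 CpGs lay under 20%, with a median of 2.41%.

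The locus near Prl5a1 was the exception in WT cells at day 29. Its mean was 79.7%, 82.2% and 81.0% in mock and 41.4%, 35.9% and 37.7% after Cre, whereas the means of the other 9 loci after Cre were between 1.15% and 4.45%. All 3 of its CpGs were called lower. The CpG at chr13:28387680, which kept most of its level in TTKO cells, had 95.9%, 93.5% and 94.4% in WT mock and 80.8%, 73.5% and 78.1% after Cre.

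Whether Cre acted differently in the lines was tested with the interaction of line and treatment at day 29. Of 53 CpGs tested, 6 were called, 3 with a stronger fall in odds in TTKO and 3 in WT cells, against 5.99% of all CpGs, and 20 passed unadjusted. The clearest was chr13:28387599 near Prl5a1, the first CpG of the fifth printed sequence. In WT cells it went from 58.2%, 66.4% and 63.1% in mock to 5.11%, 3.37% and 5.39% after Cre, and in TTKO cells from 90.5%, 84.6% and 90.5% to 73.0%, 70.8% and 64.3% (log2 ratio of odds ratios 3.27 ± 0.543 SE, adjusted p = 0.0119 from the quasi-binomial model with limma). This count rested on single libraries. It was 0 without TTKO Cre replicate 1, 1 without TTKO Cre replicate 2 or 3, TTKO mock replicate 1 or WT mock replicate 3, 2 without WT mock replicate 1, and 3 without WT Cre replicate 1 or 3.

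SureSelect gave a measurement of 84 CpGs at 9 of the loci from separate libraries. The labels name the same replicates as in the amplicons, so that the cultures need not be separate. The mean level in TTKO cells was 50.2% at day 0 and 17.6% at day 29, and in WT cells 14.3% at day 0. All 84 CpGs were lower at day 29 than at day 0 in TTKO cells, against 59.3% of all SureSelect CpGs (Fisher's exact test on pooled reads, Benjamini-Hochberg adjusted p under 0.05), with a median difference of -36.5 points against -12.2 points over all CpGs. In the comparison of TTKO with WT cells, 68 of 84 were higher and 3 lower, against 44.7% higher and 0.907% lower of all CpGs, with a median difference of 40.1 points against 4.80 points over all CpGs. The test takes reads as independent and leaves out the spread between replicates, which the joined columns do not show. On the 33 CpGs measured by both assays the SureSelect level was lower by a median of 8.83 points in TTKO cells at day 0, of 2.98 points in WT cells and of 4.50 points in TTKO cells at day 29, so that levels are compared only within an assay.

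SureSelect alone measured 3 loci. The 15 CpGs inside the Man1c1 locus had a mean of 15.4% in WT and 60.4% in TTKO cells at day 0, and of 53.8%, 47.4%, 43.1%, 36.3%, 29.8% and 23.2% at days 4, 8, 10, 13, 17 and 29. The 13 CpGs of the locus near Ccrn4l, which encodes the deadenylase nocturnin, had 11.4% in WT and 42.2% in TTKO cells at day 0, and 10.5% at day 29. The 1 CpG inside the Rassf3 locus, at chr10:120898524, had 10.7% in WT (95% Wilson interval 5.74 to 19.1, 84 reads) and 68.7% in TTKO cells (59.0 to 77.0, 99 reads), and 27.5% at day 29 (18.4 to 39.0, 69 reads). Of these 29 CpGs, 28 were called higher in TTKO cells and 29 lower at day 29.

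At Fggy the 13 SureSelect CpGs had a mean of 21.1% in WT and 18.2% in TTKO cells at day 0, with 1 called higher and 3 called lower in TTKO cells, and these were the 3 lower calls in all of the regions. With over-dispersion in the variance 65 higher and 2 lower calls were left over all of the regions, against 34.1% higher and 0.227% lower of all CpGs, and the 2 Fggy CpGs in the amplicons overlapped between the lines. At chr4:95223919 the level was 41.2% in WT (95% Wilson interval 34.0 to 48.8, 165 reads) and 25.2% in TTKO cells (18.5 to 33.3, 131 reads). At chr4:95223971 it was 47.5% (41.3 to 53.8) and 29.8% (24.0 to 36.3), and at chr4:95224180 it was 19.6% (15.0 to 25.3) and 6.30% (3.47 to 11.3). The intervals of the lines did not overlap at any of them, but they rest on the same pooled reads as the calls and add no support. In the time course the mean over the 13 CpGs was 22.8%, 17.7%, 14.8%, 12.9%, 9.78% and 3.62% at days 4, 8, 10, 13, 17 and 29, and all 13 were called lower at day 29.

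Levels changed with distance from the ends of the regions. The 72 CpGs within 500 bases outside the ends had a mean of 21.8% in WT and 54.3% in TTKO cells at day 0, against 14.3% and 50.2% inside. The 10 CpGs between 500 and 1000 bases away had 56.0% and 76.4%, and the 23 CpGs between 1000 and 2000 bases had 68.1% and 80.4%. The excess of TTKO over WT cells was 35.9 points inside, then 32.5, 20.4 and 12.3 points outward. Between 500 and 1000 bases it was 8.60 points with at least 100 reads per CpG, over 5 CpGs of 1 locus, and beyond 1000 bases 8.62 points, over 18 CpGs of 2 loci. The share of the TTKO day 0 level left at day 29 was 35.1% inside, then 43.0%, 59.2% and 71.0% outward. These are descriptions over pooled libraries, and different loci filled the classes, 9 inside, 7, 2 and 3 outward. Most CpGs beyond 1000 bases lay around Rassf3, a locus with 1 CpG inside. With loci weighted equally the share left was 36.7% inside, 55.8% within 500 bases and 67.7% beyond 1000 bases, and the excess of TTKO over WT cells was 38.3, 36.7 and 21.1 points.

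**Figure D4:**
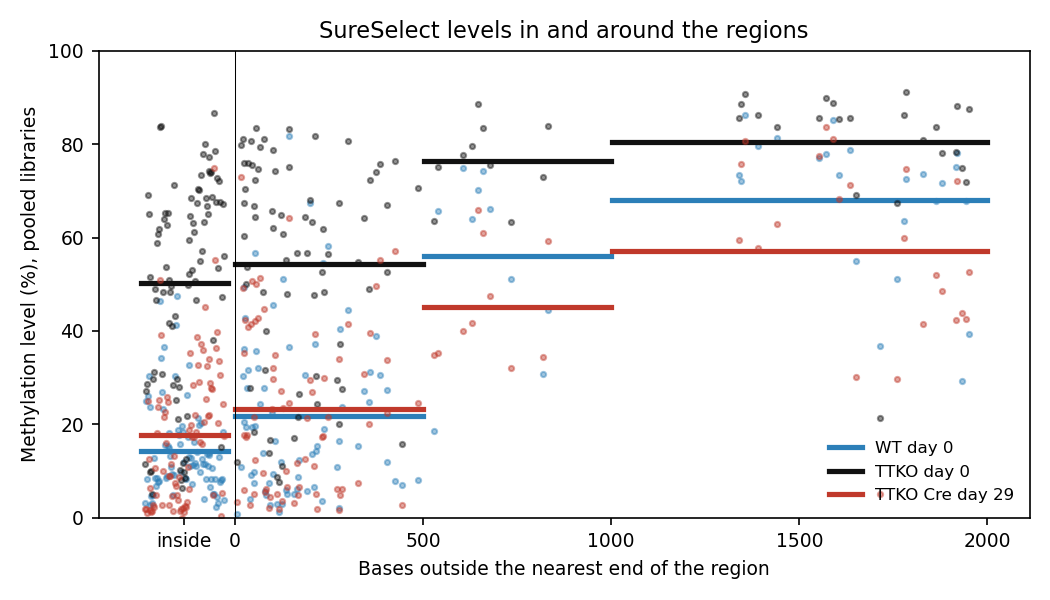
SureSelect methylation level in percent of each CpG inside the regions (left of the vertical line, in order of position) and against bases outside the nearest end, for pooled libraries of WT day 0 (blue), TTKO day 0 (black) and TTKO Cre day 29 (red), with bars for the mean of each distance class. WT means rise from 14.3% inside to 68.1% beyond 1000 bases, and TTKO day 0 means from 50.2% to 80.4%.

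Flanking means differed between single loci, and near Tram1 the flanking mean at day 0 was below the mean inside. Around Rassf3, 26 flanking CpGs had a mean of 56.5% in WT and 69.1% in TTKO cells at day 0 and 46.4% at day 29. Near Ccrn4l, 22 flanking CpGs had 47.8% and 69.2%, against 11.4% and 42.2% inside. Near 3830408C21Rik, 23 flanking CpGs had 22% and 63.4%, against 9.88% and 54.2% inside. Single flanking CpGs there ranged from 2% to 70.2% in WT cells. Near Tram1 13 flanking CpGs had 7.18% and 20.2%, against 12.2% and 22.4% at the 3 CpGs inside. Flanking CpGs reached 444 bases from the ends near Tram1, 833 near 3830408C21Rik and 1916 around Rassf3. These means therefore do not compare the loci at like distances.

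The time course was also put into rates per day, by the study's 2-rate model in which a demethylation rate (k_de, in TTKO cells the imperfect copying by DNMT1) opposes a de novo methylation rate (k_me) that fades after Cre. Of the 59 CpGs, 57 were identifiable and 55 had both rates within a narrow credible range. The median k_de was 0.0442 per day, from 0.00253 to 0.203, and the median k_me was 0.0947 per day, from 0.0170 to 0.396. Medians of the single replicates were 0.0442, 0.0442 and 0.0486 per day for k_de and 0.0947, 0.104 and 0.115 per day for k_me. The rates rest on the same levels as above and are given as a description, with no test.

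Loci of similar TTKO level differed in rates. Among loci in the amplicons Cradd had the highest median k_me, 0.303 per day over 6 CpGs, with a median k_de of 0.0288 per day. In SureSelect the same 6 CpGs had a lower k_me, with a median of 0.0947 and a range of 0.0712 to 0.115 per day. That median was below the 0.104 per day of 5 CpGs near 3830408C21Rik in SureSelect. The locus near Prl5a1, which was also highly methylated, had a median k_me of 0.0647 and k_de of 0.00795 per day, both below the amplicon values at Cradd. Its k_me was 0.0947, 0.0588 and 0.0712 per day in single replicates, and the paper calls k_me hard to infer at highly methylated CpGs. Akap6 had 0.0402 and 0.0187 per day and the locus near Col1a1 0.126 and 0.0588 per day. In SureSelect 5 of the Akap6 CpGs had a higher median k_me, 0.0647 against 0.0402 per day in the amplicons. In single replicates the median k_me ranged from 0.194 to 0.377 per day at Cradd, from 0.0332 to 0.0647 at Akap6 and from 0.0647 to 0.139 near Col1a1. The 2 Fggy CpGs had a k_me of 0.0544 and a k_de of 0.165 per day, but the k_de was 0.283, 0.0588 and 0.160 and the k_me 0.120, 0.0122 and 0.0535 per day in the replicates, and the 1 CpG with well-defined rates in both assays had a k_me of 0.0442 in the amplicons and 0.0155 in SureSelect. At Trak1 1 of 4 CpGs had well-defined rates. In the SureSelect data 73 of 84 CpGs inside the regions had well-defined rates, with a median k_de of 0.0535 and k_me of 0.0783 per day, and 85 of 105 CpGs outside, with 0.0365 and 0.0712 per day.

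**Figure D5:**
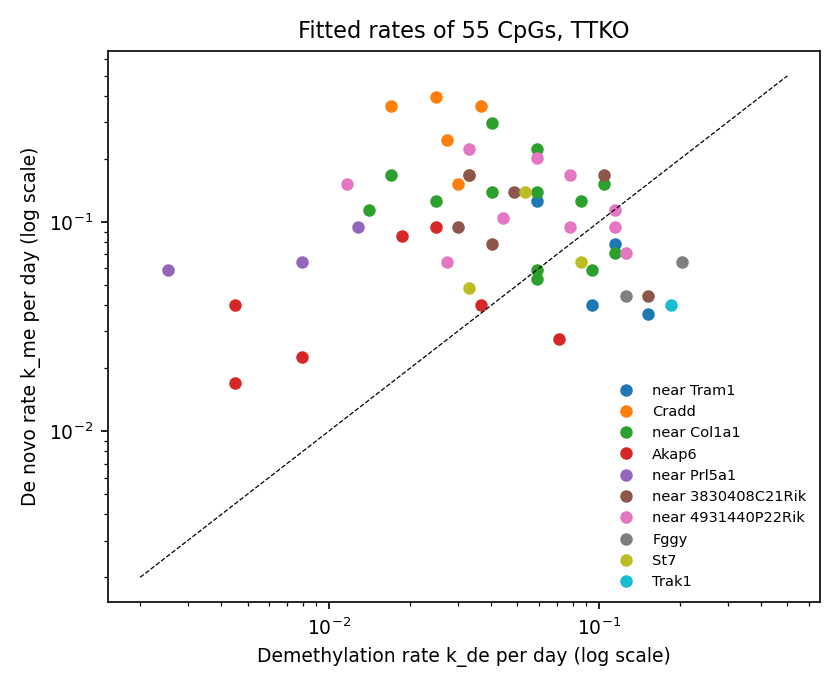
Fitted de novo methylation rate k_me against demethylation rate k_de, both per day on log axes, for the 55 amplicon CpGs with well-defined rates in TTKO cells, coloured by locus, with a dashed line where the rates are equal. Cradd CpGs (orange) lie in the upper range, with k_me of 0.153 to 0.396 per day, and CpGs near Prl5a1 (purple) at the left, with k_de of 0.00253 to 0.0128 per day.

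Other constitutive LMRs were typed as bound by CTCF, an insulator protein, or by REST, a repressor of neuronal genes. Against both classes these regions had higher mean levels in TTKO cells, and levels are given without a test. In WT cells at day 0 the mean was 20.6% ± 0.568 (SD, n = 3) over their 59 CpGs, 18.0% over the 23 CpGs of 6 CTCF-typed regions and 9.71% over the 98 CpGs of 28 REST-typed regions. The 59 CpGs include the 3 near Prl5a1, at 38.6% to 91.6% in WT cells. The small excess over CTCF-typed regions was not computed without them. In TTKO cells the means were 61.5% ± 1.19, 33.2% and 19.3%. The median log2 odds ratio of TTKO over WT cells was 3.42 against 0.71 and 0.47, with 51 of 59, 12 of 23 and 37 of 98 CpGs called higher. In TTKO cells the share of the mock level kept at day 29 after Cre was 46.6%, 48.0% and 41.4% in the replicates for the 53 CpGs with all levels, 41.3% ± 4.92 for CTCF-typed and 45% ± 2.27 for REST-typed regions. The difference was 4.04 points from CTCF-typed (two-sided exact permutation test, p = 0.3), where 15 CpGs entered, and 0.374 points from REST-typed regions (p = 0.9 by the same exact test), which turned to -1.10 points without replicate 2. The classes came from the same libraries, which that test does not use. Within the TTKO libraries the share was higher here than in CTCF-typed regions in 3 of 3, by 5.13, 1.89 and 5.10 points (exact sign-flip p = 0.25, the smallest that 3 pairs allow), and higher than in REST-typed regions in 1 of 3 (exact sign-flip p = 1). Each Cre library was divided by the mock library of the same number, and divided by the mean of the 3 mock libraries instead the differences were 4.11 and 0.339 points (exact permutation p = 0.2 and 0.8). In WT cells the order was another one, given without a test. There the share kept was 23.1%, 22.7% and 18.4% in the replicates here, 23.2%, 22.9% and 20.8% in CTCF-typed and 44.2%, 43.3% and 36.0% in REST-typed regions, so that it was lower here than in REST-typed regions without overlap. It overlapped with CTCF-typed regions, below them by this measure (21.4% against 22.3%) and above them as a share of the day 0 level (24.1% against 22.3%) or with regions weighted equally (27.8% against 24.2%). The within-library comparison and the mean of the mock libraries were added after seeing the data. With regions weighted equally the TTKO differences were 10.3 points from CTCF-typed (exact p = 0.1, the smallest possible) and 3.30 points from REST-typed regions (exact p = 0.2). As a share of the TTKO day 0 level the differences were 7.39 and 3.20 points (p = 0.1 each by the same exact test, the smallest possible).

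In fitted rates, the median k_de was 0.0442 per day here, 0.0993 in CTCF-typed and 0.0535 in REST-typed regions, and the median k_me was 0.0947, 0.0535 and 0.0227 per day, over 55, 16 and 49 CpGs with well-defined rates. Under the alternatives run for the rates and with single replicates left out, the median k_me was 0.0861 to 0.104 here, 0.0302 to 0.0783 in CTCF-typed and 0.0170 to 0.0332 in REST-typed regions, the lowest CTCF-typed value being the one with no undeleted cells. The order of the k_de medians here and in REST-typed regions rested on single replicates, with 0.0442 here against 0.0431 without replicate 1, 0.0510 against 0.0348 without replicate 2 and 0.0453 against 0.0475 without replicate 3. Sequence was compared in windows of 300 bases at the centre of each listed region, on both strands. The left part of the REST motif (TTCAGCACC) was found in 0 of 19 windows, against 7 of 28 REST-typed windows and 7 of all 88. The right part (GGACAG) was found in 4 of 19, against 26 of 28 and 38 of 88, and the CTCF core (AGNNGGCNC) in 3 of 19, against 1 of 6 CTCF-typed windows and 13 of 88. These letters were searched without mismatches, and their absence says nothing of the factor. The number of CpGs within 500 bases to either side of a measured CpG, itself included, had a median of 20 (8 to 34) in these regions, 15 (7 to 21) in CTCF-typed and 17.5 (7 to 46) in REST-typed regions.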

How the data were processed

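Methylation was measured in 78 amplicon and 24 SureSelect libraries, grouped by their labels. Alignment by the authors used QuasR with Rbowtie and mm9. AmpliconBiSeq gave amplicon levels, for CpGs with at least 100 reads, and qMeth gave SureSelect levels. Coverage was deposited as read counts. Amplicon levels were deposited as fractions and SureSelect levels as percent, the latter with replicates joined by the authors. Deposited columns of the authors' rates (log2 values), TET activity and confidence were not used, and 0 columns of single samples were left unused. Coverage times level, rounded, gave methylated reads.

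For amplicons a quasi-binomial model was fitted to each CpG between groups (R 4.3.3, limma 3.58.1 to moderate the dispersion) and adjusted over all CpGs of the table, with exact permutation tests, two-sided, for means. The same model planned for SureSelect could not be fitted to joined replicates, so pooled reads were compared with Fisher's exact test. Both used Benjamini-Hochberg adjustment and a threshold of 0.05. Simulated data with known changes were put through the amplicon model and Fisher's exact test. For TTKO Cre against mock at day 29, the amplicon model recovered 82 of 200 changes, with 3.53% of its calls false. For SureSelect TTKO day 29 against day 0, Fisher's test recovered 107 of 200, with 0.926% of its calls false. A CpG that was not called therefore need not be unchanged. Rates were fitted on a grid of 80 values per axis up to 2 per day (k_E 0.5 per day, 8% undeleted, over-dispersion 0.0055) with python 3.11.15, numpy 2.4.6, scipy 1.17.1 and pandas 2.3.3, and figures were drawn with matplotlib 3.10.9. A CpG counted as identifiable when each border of the grid held a probability under 0.08, and as well defined when both 95% credible ranges were under 2 on the log2 scale.

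CpGs named are the highest and lowest TTKO day 0 levels of a locus, the largest and smallest drop after Cre and the largest and smallest rise from WT to TTKO, with their neighbours and the other CpGs chosen after their values were seen. The regions and comparisons were chosen with earlier results of these data known. Alternatives were minimum coverage, limma on logits, replicate block, each library left out, region means, and rate settings.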

Additional observations from a re-analysis of the deposited data

Results flagged for a closer look

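At 6 CpGs the effect of Cre against mock at day 29 differed between the lines in the test of the interaction itself, given here as the log2 ratio of the TTKO to the WT odds ratio with adjusted p from the quasi-binomial model with limma. A stronger relative fall in TTKO cells was found at chr1:13521932 near Tram1 (-3.81, adjusted p = 0.0424), at chr13:107863509 near 3830408C21Rik (-2.61, adjusted p = 0.0482) and at chr3:65259997 near 4931440P22Rik (-2.07, adjusted p = 0.0482). All 3 were under 50% in TTKO and under 12% in WT cells at day 0. The first went from 20.9%, 13.2% and 19.8% to 0.863%, 1.58% and 0.710% in TTKO cells and from 3.18%, 4.30% and 2.96% to 1.16%, 3.20% and 2.74% in WT cells, where the replicates overlapped.

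A stronger relative fall in WT cells was found at chr13:28387599 (3.27, adjusted p = 0.0119) and chr13:28387667 (1.91, adjusted p = 0.0295) near Prl5a1 and at chr3:65259461 near 4931440P22Rik (1.72, adjusted p = 0.0449). All 3 were above 85% in TTKO mock cells and above 55% in WT mock cells at day 29. The CpG at chr13:28387667 went from 87.5%, 86.0% and 86.2% to 63.5%, 68.5% and 68.7% in TTKO cells and from 84.8%, 86.8% and 85.6% to 38.4%, 30.7% and 29.6% in WT cells. The calls rested on single libraries. The count of 6 fell to 0 without TTKO Cre replicate 1, and no call of a stronger fall in TTKO cells remained when any 1 of the 3 TTKO Cre replicates was left out. No amplicon value of these regions was tested for outlying libraries, since groups held 3 replicates.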

How the results depend on the processing

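Same-numbered libraries did not deviate together, with correlations of their deviations between -0.33 and 0.221 over CpGs and no comparison in which all pairs exceeded 0.1, so the replicate numbers did not pair the samples. With the number as a block, the TTKO count at day 8 was 6 in place of 10 and the interaction count 2 in place of 6, both with a stronger fall in WT cells, and the block moved no other count of calls by over 1.5 times. limma on logit levels called 1 CpG at day 8 in TTKO cells. Requiring 1000 reads in every library left 22 of 23 tested CpGs called in TTKO at day 17 and 27 of 28 at day 29. In WT it left 18 of 28 at day 13 and 13 of 20 at day 17, and between the lines 18 of 20. These counts were lower because fewer CpGs were tested. Leaving out 1 library at a time gave 0 to 16 calls in TTKO at day 8 and 13 to 26 at day 10, 25 to 33 in WT at day 8, 9 to 26 at day 10 and 17 to 35 at day 13, and 0 to 8 for the interaction. In the same way the difference in share kept from REST-typed regions was -1.10 to 1.28 points, reversed without replicate 2, and the median k_de 0.0442 to 0.0510 per day, highest without replicate 2. That median was 0.0402 with k_E of 1 per day and 0.0402 with no undeleted cells. In SureSelect, region means gave an excess of TTKO over WT of 38.3, 36.7 and 21.1 points inside, within 500 and beyond 1000 bases, with shares kept of 36.7%, 55.8% and 67.7%. At least 100 reads per CpG gave a share kept of 36.4% inside and 40.4% within 500 bases, and an excess of 31.3, 8.60 and 8.62 points within 500, between 500 and 1000, and beyond 1000 bases. The causes were not tested. The means over the CpGs and the SureSelect counts kept their direction under the alternatives run for them. Permutation tests of 3 against 3 cannot pass 0.05.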
